A study of Mus musculus with 25 samples.

Results

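Dlx1 and Dlx2 are a pair of neighbouring homeobox genes, and their RNA and the chromatin around their starts were followed in sorted cells of the developing mouse retina. They were chosen by name, with earlier results on these data known, and are 2 of 28446 genes in the RNA table, 2 of 23284 genes in the exon table of the chromatin data and 2 of 28329 regions of 10 kb around transcript starts. Their own levels are therefore given as a description, with the size of each difference and its standard error (SE) and with no p-value. The retinas came from CD1 mice, an outbred strain, and cells were sorted by green fluorescent protein (GFP). GFP+ cells are labelled as retinal progenitor cells and GFP- cells as post-mitotic retinal cells. The reporter that carries GFP is not named in the labels, so its promoter and the cells it marks are not given here. RNA was sequenced from GFP+ and from GFP- cells of embryos at day 14 (E14) and day 18 (E18) and of pups at day 2 after birth (P2), with 2 libraries in each of 6 groups. ATAC-seq, which counts where a transposase can enter open chromatin, covered GFP+ cells alone, with 1 library at E10 (labelled as day 10 to 11) and 2 at each of 6 later ages: E12.5, E14, E16.5 and E18 in embryos, and P0 as well as P2 after birth. The labels do not say whether the libraries of a group came from separate animals, so all p-values below measure the spread between libraries, which may be technical.

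Dlx1 and Dlx2 encode homeodomain transcription factors that bind DNA with a TAATTA core. They lie tail to tail as a pair, as do other Dlx genes, and they overlap in function. In mice lacking both, late-born retinal ganglion cells are lost, and in the forebrain the same double mutants fail to make many GABA interneurons. Genes reported as direct targets include the ganglion cell factor Pou4f2 and the receptor gene Ntrk2, the GABA enzymes Gad1 and Gad2, and the repressed genes Crx and Nrp2.

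In the mm9 coordinates of the deposited exon table, Dlx1 lies on the plus strand of chromosome 2 from 71367502 to 71372037, and Dlx2 on the minus strand from 71381465 to 71384811. Each has 3 exons. Their starts are 17309 bases apart and 9427 bases separate their 3′ ends. Dlx1as, a non-coding RNA on the minus strand, runs from 71375948 to 71368695 and shares 1055 exon bases with Dlx1, or 37.8% of its own exon length. The RNA counting is not stated to use strand, so reads of Dlx1 and Dlx1as over those bases cannot be told apart. The RefSeq promoters of both genes, 250 bases before the start to 50 bases after it, are shown because the chromatin values below are centred on them. They come from GRCm38.p6, at chr2:71529195-71529494 on the plus strand for Dlx1 and chr2:71546705-71547004 on the minus strand for Dlx2, and capitals mark every match to the motifs searched.
Dlx1: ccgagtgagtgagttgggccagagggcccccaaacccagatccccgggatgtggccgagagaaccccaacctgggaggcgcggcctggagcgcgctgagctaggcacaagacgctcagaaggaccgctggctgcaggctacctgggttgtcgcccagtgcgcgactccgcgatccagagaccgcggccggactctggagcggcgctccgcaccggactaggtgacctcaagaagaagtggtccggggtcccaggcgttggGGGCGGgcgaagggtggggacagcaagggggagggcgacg
Dlx2: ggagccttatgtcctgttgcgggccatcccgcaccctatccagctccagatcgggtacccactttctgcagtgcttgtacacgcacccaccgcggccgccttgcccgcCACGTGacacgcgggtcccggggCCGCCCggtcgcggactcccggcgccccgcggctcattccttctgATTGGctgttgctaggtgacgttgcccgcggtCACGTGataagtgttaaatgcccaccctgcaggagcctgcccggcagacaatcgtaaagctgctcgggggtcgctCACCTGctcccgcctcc
Both promoters were rich in CpG, with 27 CpG and 69.3% GC for Dlx1 and 29 CpG and 66.3% GC for Dlx2, against a median of 7 CpG and 52.7% GC over 32851 RefSeq promoters of the same length. Fewer CpG than in Dlx1 were found in 84.5% of those promoters, and fewer than in Dlx2 in 87.1%. The motifs, searched on both strands, were TAATTA (the core bound by Dlx and many other homeodomains), CANNTG (the E box of bHLH factors), TATAAA (the TATA box), CCAAT (the box bound by NF-Y) and GGGCGG (the GC box bound by Sp factors). With the start as base 0, Dlx2 held 3 E boxes, with CACGTG from base -142 and again from base -42, and with CACCTG from base 33. It also held the NF-Y box, on the other strand and so printed as ATTGG, from base -74, and the GC box, likewise printed as CCGCCC, from base -119. Dlx1 held the GC box alone, from base 10, and neither promoter held the homeodomain core or the TATA box. An E box was present in 72.3% of the promoters, the NF-Y box in 37.4%, the GC box in 35.7%, the TATA box in 13.6% and the homeodomain core in 5.29%. No motif match overlapped another. A match says only that these letters are in the window.

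Several libraries stood apart from their group before any Dlx value was considered. The library labelled E14 GFP- replicate 2 held 4883 FPKM (fragments per kilobase of transcript, scaled to the size of the library) summed over 12 lens genes, against 1.49 in E14 GFP- replicate 1, and the library labelled E14 GFP+ replicate 2 held 129.9, against 0.697 in E14 GFP+ replicate 1. In the library labelled E14 GFP- replicate 2 the 15 progenitor genes summed to 2496 FPKM and the 20 ganglion cell genes to 137.3, against 702.7 and 5730 in E14 GFP- replicate 1, so it went against its label as post-mitotic cells. None of the 12 lens genes was at 0 in either library numbered 2, while 7 were in E14 GFP+ replicate 1 and 3 in E14 GFP- replicate 1. The part of these cells in the E14 values was not tested, and values without those libraries are given beside the results. All 4 E18 libraries held 1706 to 3935 FPKM of the nuclear RNA Malat1 and 2.61% to 9.57% of their summed FPKM in replication-dependent histone genes, against 79.9 to 134.9 FPKM and 0.0338% to 0.0572% in the other 8 libraries, although the labels name the same molecule and kit for all 12. In ATAC-seq, the count at starts over that in the flanks of the same regions was 6.40 in the E10 library and 12.2 in P2 replicate 2, against 18.5 to 28.6 in the other 11. ATAC counts summed over the start regions ran from 11176227 to 94662422 per library. The depth of the RNA libraries is unknown, since only FPKM were used.

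RNA of both genes was highest in GFP+ cells at E14 and lowest, on average, at P2 in both sorts. Dlx1 was present at 21.4 and 8.89 FPKM in E14 GFP+ libraries 1 and 2, 7.23 and 8.08 FPKM at E18 and 1.58 and 2.43 FPKM at P2. In GFP- cells Dlx1 was at 4.09 and 6.19 FPKM at E14, 3.53 and 5.23 FPKM at E18 and 2.68 and 1.38 FPKM at P2. Both E14 and both E18 GFP+ libraries thus lay above both GFP- libraries of their age, and the P2 libraries of the sorts overlapped. Dlx2 was present at 18.6 and 9.89 FPKM in E14 GFP+ libraries 1 and 2, 3.01 and 3.23 FPKM at E18 and 1.48 and 2.92 FPKM at P2. In GFP- cells it was at 3.51 and 5.48 FPKM at E14, 1.90 and 2.59 FPKM at E18 and 2.77 and 0.965 FPKM at P2. The sorts were again separate at E14 and E18 and overlapped at P2. In the whole table, GFP+ libraries lay above GFP- libraries without overlap for 18.7% of 14276 tested genes at E14 and 39.6% at E18, so the separation at E18 was a common one. In rank, Dlx2 stood above 81.9% of all genes in E14 GFP+ replicate 1 and above 73.0% in E14 GFP+ replicate 2. In these bulk samples, fewer cells that make an RNA and less of that RNA per cell cannot be told apart.

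**Figure D1:**
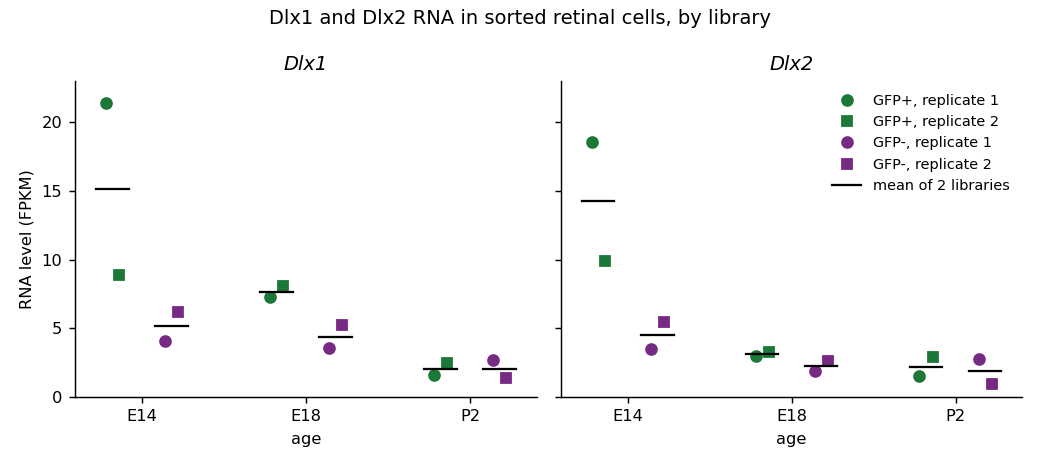
RNA level in FPKM of Dlx1 (left) and Dlx2 (right) in each of the 12 libraries, by age, with GFP+ in green left of GFP- in purple, circles and squares for replicates 1 and 2 and black lines for the mean of 2 libraries. The highest points are E14 GFP+ replicate 1, at 21.4 FPKM for Dlx1 and 18.6 FPKM for Dlx2, and the P2 points of the sorts overlap.

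Mean Dlx1 was 15.2 ± 8.87 FPKM in E14 GFP+ cells and 5.14 ± 1.49 FPKM in E14 GFP- cells (SD, n = 2 each), a ratio of means of 2.95. Mean Dlx2 was 14.2 ± 6.15 FPKM in E14 GFP+ cells and 4.50 ± 1.40 FPKM in E14 GFP- cells (SD, n = 2 each), a ratio of 3.17. On the log2(FPKM + 1) scale, which understates changes of low genes, the difference between GFP+ and GFP- cells at E14 was 1.30 ± 0.42 for Dlx1 and 1.43 ± 0.42 for Dlx2 (SE of the limma fit over 12 libraries). One library carried much of it: without E14 GFP+ replicate 1 the differences were 0.71 and 1.01, and without the library labelled E14 GFP- replicate 2 they were 1.55 and 1.70. Without both E14 libraries numbered 2, they were 2.14 for Dlx1 and 2.12 for Dlx2. With all libraries the sort difference was smaller at later ages, though the change with age was not tested. At E18 it was 0.70 ± 0.42 for Dlx1 and 0.35 ± 0.42 for Dlx2, with mean FPKM 1.75 and 1.39 times as high in GFP+ as in GFP- cells. At P2 it was 0.01 ± 0.42 and 0.19 ± 0.42, both within 1 SE of 0. Under quantile scaling the differences at E14, E18 and P2 were 1.29, 0.96 and 0.29 for Dlx1 and 1.42, 0.76 and 0.47 for Dlx2. Without E14 GFP+ replicate 1, the Dlx1 difference at E14, 0.71, was close to that at E18.

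Both genes were lower in GFP+ cells at P2 than at E14, with no overlap of libraries. Mean Dlx1 was 2.00 ± 0.605 FPKM in P2 GFP+ cells, against 15.2 ± 8.87 FPKM in E14 GFP+ cells (SD, n = 2 each), so the E14 mean was 7.57 times the P2 mean. Mean Dlx2 was 2.20 ± 1.02 FPKM at P2, against 14.2 ± 6.15 FPKM at E14, a ratio of 6.48. The log2 differences, P2 minus E14, were -2.32 ± 0.42 for Dlx1 and -2.23 ± 0.42 for Dlx2. P2 GFP+ libraries lay below E14 GFP+ libraries without overlap for 27.2% of tested genes. Without E14 GFP+ replicate 1 the Dlx1 difference was -1.73 and the Dlx2 difference -1.81, and without E14 GFP+ replicate 2 they were -2.92 and -2.65. In GFP- cells the P2 minus E14 difference was -1.03 ± 0.42 for Dlx1 and -0.99 ± 0.42 for Dlx2, and without the library labelled E14 GFP- replicate 2 it was -0.78 and -0.73. The P2 GFP- libraries lay below the E14 GFP- libraries without overlap for both genes, as for 18.6% of tested genes.

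The steps between ages differed between the genes. In GFP+ cells the E14 mean was 1.98 times the E18 mean for Dlx1 and 4.56 times for Dlx2, while the E18 mean was 3.82 times the P2 mean for Dlx1 and 1.42 times for Dlx2. The ratio of Dlx1 to Dlx2 FPKM accordingly ran from 0.90 to 1.16 over the 4 E14 libraries, from 1.85 to 2.50 over the 4 E18 libraries and from 0.834 to 1.43 over the 4 P2 libraries. All 4 E18 ratios lay above all 8 others, in GFP+ and GFP- cells alike. The E18 libraries are also those with high Malat1 and histone RNA, so age and library type cannot be told apart for this ratio. Across the 12 libraries log2(FPKM + 1) of the genes had a Pearson correlation of 0.882 and a Spearman correlation of 0.846. Without the 2 libraries farthest from the Dlx1 median, E14 GFP+ replicate 1 and P2 GFP- replicate 2, these were 0.698 and 0.733 over 10 libraries. The libraries share their ages and sorts, so these are not independent points.

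The antisense RNA Dlx1as ran at lower levels over the same groups. It was at 3.47 and 1.80 FPKM in E14 GFP+ libraries 1 and 2, 1.20 and 1.12 FPKM at E18 and 0.748 and 0.335 FPKM at P2. In GFP- cells it was at 0.376 and 1.44 FPKM at E14, 0 and 1.45 FPKM at E18 and 0.810 and 0.734 FPKM at P2. Its sort difference at E14 was 0.95 ± 0.45 on the log2(FPKM + 1) scale (limma adjusted p = 0.33), and its P2 minus E14 difference in GFP+ cells was -1.21 ± 0.45 (limma adjusted p = 0.265). Neither passed the threshold of 0.05. Of the other family members, Dlx3, known for skin and tooth development, ranged from 0.20 to 1.74 FPKM and was highest in P2 GFP- replicate 1. Dlx5 and Dlx6, which form a second pair beside a non-coding RNA Dlx6os1 and act with Dlx1 and Dlx2 in the forebrain, reached at most 0.554 and 0.305 FPKM and were listed at 0 in 5 and 7 of 12 libraries. Dlx4 reached 0.0719 FPKM and Dlx6os1 0.186 FPKM, and Dlx6os2 was listed at 0 in all 12. None of these 6 passed the filter of 1 FPKM in 2 libraries, which Dlx1, Dlx2 and Dlx1as passed.

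By Pearson correlation of log2(FPKM + 1) over the 12 libraries, among 10840 named genes with a group mean of at least 5 FPKM, the 8 genes most like Dlx1 were Stk33 (0.932), Stbd1 (0.928), Atoh7 (0.925), Pth1r (0.924), Gpt2 (0.909), Afap1l1 (0.899), Mb21d2 (0.894) and Aldh18a1 (0.890). Dlx2 came 11th among them, at 0.882. Atoh7, a bHLH factor required for ganglion cells, was at 198.1 and 85.6 FPKM in E14 GFP+ libraries, 94.9 and 105.9 FPKM at E18 and 4.90 and 14.7 FPKM at P2. In GFP- cells Atoh7 was at 6.03 and 45.1 FPKM at E14, 24.2 and 32.2 FPKM at E18 and 11.1 and 2.72 FPKM at P2. Its means thus followed the Dlx1 order of ages in GFP+ cells, though E14 GFP+ replicate 2 lay below both E18 GFP+ libraries. The library labelled E14 GFP- replicate 2, which went against its label, was the highest GFP- library for Atoh7, Dlx1 and Dlx2 alike. The genes most like Dlx2 were Strap (0.950), Fam122a (0.906), Ddx3x (0.893), Dlx1 (0.882), Coa7 (0.877), Ngef (0.874), Wdr54 (0.868) and Abracl (0.865). The lists of 8 share no gene. These values are a description over libraries that share ages and sorts.

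**Figure D2:**
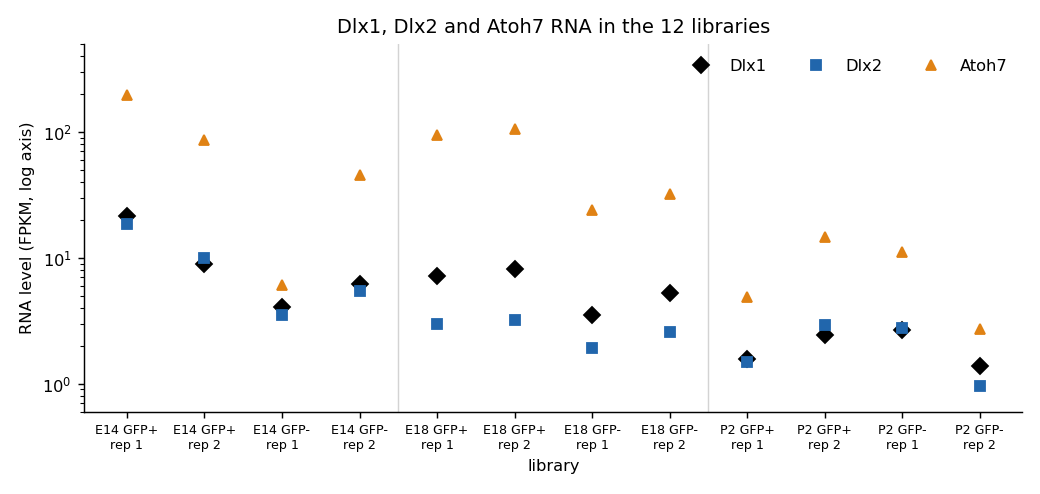
FPKM on a log axis of Dlx1 (diamonds), Dlx2 (squares) and Atoh7 (triangles) in each of the 12 libraries, in order of age with GFP+ left of GFP-. Atoh7 lies above both Dlx genes in every library, from 2.72 to 198.1 FPKM, and Dlx1 separates from Dlx2 in the 4 E18 libraries.

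Accessibility around the starts differed little between E14 and P2 and, after TMM scaling, was lowest at E10 and E12.5. Over the 10 kb region of Dlx1 the CPM (ATAC-seq counts scaled to the library total, with the TMM factor of edgeR) were 38.2 in the E10 library, 42.3 and 39.0 at E12.5, 59.7 and 63.4 at E14, 69.9 and 63.8 at E16.5, 60.2 and 65.5 at E18, 55.7 and 60.5 at P0 and 57.4 and 55.7 at P2. The E10 and E12.5 libraries were the lowest, and from E14 to P2 all values stayed between 55.7 and 69.9. Over the Dlx2 region they were 54.1 in the E10 library, 41.4 and 37.4 at E12.5, 65.5 and 74.0 at E14, 73.0 and 74.8 at E16.5, 73.2 and 77.5 at E18, 75.2 and 74.7 at P0 and 78.2 and 60.2 at P2. The E12.5 libraries were the lowest of the 13. In the single E10 library the counts were 599 for Dlx1 and 849 for Dlx2, or 47.2 (95% exact interval 43.5 to 51.2) and 67.0 (62.5 to 71.6) CPM of the region total before TMM, intervals that cover counting error only. Before TMM, E14 replicate 1 held 63.0 CPM for Dlx2, less than the E10 library. The place of E10 below E14 for Dlx2 thus rests on that scaling, in the library with the fewest counts at starts over flanks (6.40).

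**Figure D3:**
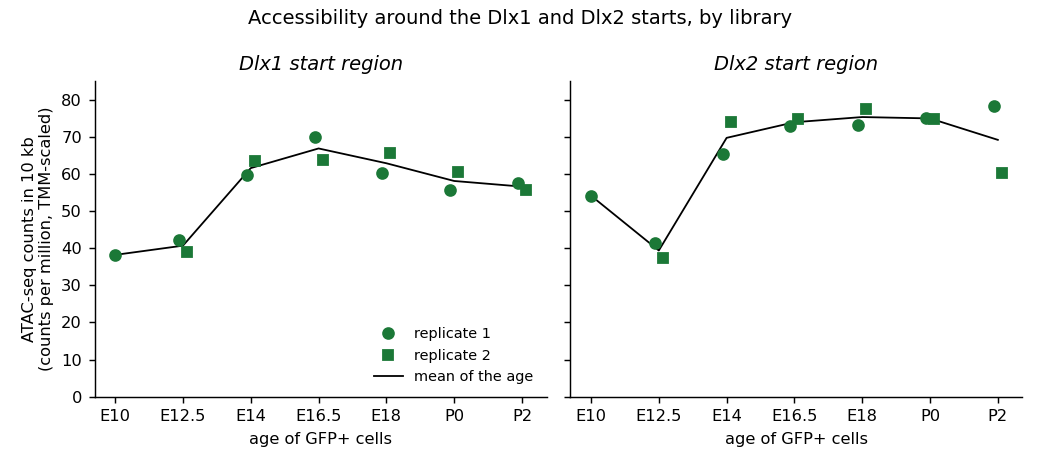
ATAC-seq CPM (TMM-scaled) in the 10 kb around the start of Dlx1 (left) and Dlx2 (right) in GFP+ cells by age, with circles and squares for replicates 1 and 2 and a black line through the mean of each age. Dlx1 lies at 38.2 to 42.3 at E10 and E12.5 and at 55.7 or above from E14 on, and Dlx2 is lowest at E12.5.

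Between P2 and E14, the ages also covered by RNA, the Dlx1 region averaged 56.6 ± 1.19 CPM at P2 and 61.6 ± 2.64 CPM at E14 (SD, n = 2 each), a log2 difference of -0.12 ± 0.14 (SE, edgeR). After TMM the groups did not overlap, as in 29.4% of the 27902 tested regions with P2 below E14. Before TMM they did, at 55.55 and 65.17 CPM of the region total in P2 replicates 1 and 2 and 57.48 and 60.12 CPM at E14. The Dlx2 difference was -0.01 ± 0.15, with the P2 libraries on both sides of the E14 libraries. Without P2 replicate 2, the library with few counts at starts, it was 0.16. RNA of both genes in GFP+ cells was lower at P2 by 7.57 and 6.48 times. Between P0 and E12.5 both regions were higher at P0. Dlx1 averaged 58.1 ± 3.35 CPM at P0 and 40.7 ± 2.34 CPM at E12.5 (SD, n = 2 each), a log2 difference of 0.51 ± 0.14. For Dlx2 the log2 difference was 0.93 ± 0.16, and 0.72 when the central 2 kb alone were counted. The groups did not overlap for either gene, as in 44.2% of tested regions with P0 above E12.5. The count at starts over flanks also differed between these ages, at 27.8 and 28.6 in the P0 libraries against 19.9 and 18.5 in the E12.5 libraries, and its part in these differences was not tested.

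Counts over the exons, also TMM-scaled, gave the same ages as lowest. Exon CPM of Dlx1 were 22.1 in the E10 library, 61.5 and 56.1 at E12.5, 110.9 and 126.3 at E14, 124.1 and 110.9 at E16.5, 107.9 and 113.4 at E18, 98.4 and 103.6 at P0 and 86.5 and 75.4 at P2. The P2 values lay below all others from E14 on. Exon CPM of Dlx2 were 57.3 in the E10 library, 65.2 and 56.8 at E12.5, 126.3 and 143.2 at E14, 105.1 and 112.9 at E16.5, 113.6 and 127.1 at E18, 119.7 and 112.2 at P0 and 127.9 and 91.4 at P2, where replicate 2 was low again.

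Within the regions the genes differed in shape. The highest window of the Dlx1 region stood at 200 to 399 bases after the start, inside exon 1 (mm9 chr2:71367702-71367901), and beyond the promoter sequence printed above. It averaged 10.3 CPM over the 13 libraries, against 0.53 CPM in the median window of 200 bases, and was the highest window in 12 libraries, with 12.5% to 23.3% of the region's counts. It held 2.36 CPM at E10, 6.93 and 6.49 at E12.5, 10.4 and 10.9 at E14, 15.9 and 12.6 at E16.5, 12.8 and 12.9 at E18, 13 and 13.2 at P0 and 10.0 and 6.95 at P2. In the E10 library, with 599 counts in the region, the highest window was instead the one just before the start, with 14.2% of the counts. Its mean was thus highest at E16.5, and the P2 libraries lay below all others from E14 on, above all replicate 2, with few counts at starts.

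The counts of the Dlx2 region were spread over 4 summits, windows that were the highest among the 4 on either side and held at least 2 times the median window. The window that ends at the start, which spans the distances at which the CACGTG matches and the NF-Y box of the sequence above lie, averaged 5.89 CPM, against a median window of 0.81 CPM. The others lay at bases -1399 to -1200 (4.57 CPM), at 2001 to 2200 in exon 3 (2.34 CPM) and at 3401 to 3600 (2.94 CPM), 55 bases past the annotated 3′ end. The upstream summit held 5.99 CPM in the E10 library, 1.81 and 1.53 at E12.5, 3.94 and 4.57 at E14, 4.52 and 4.40 at E16.5, 4.86 and 4.91 at E18, 5.60 and 7.22 at P0 and 5.53 and 4.48 at P2. Its E12.5 libraries were lowest and the E10 library exceeded every E14 to E18 library. The E10 value is from 1 library, with 849 counts in the region and few at starts over flanks (6.40). Another window there, from base 1801, also stood high, at 4.59 CPM against at most 3.02 CPM in the other libraries. The summit past the 3′ end was highest at E16.5, at 5.36 and 4.82 CPM, and its P2 libraries differed, at 4.15 and 1.95 CPM. The summit at the start held 6.95 CPM in the E10 library, 3.96 and 3.77 at E12.5, 7.18 and 8.17 at E18 and 5.16 and 3.41 at P2.

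**Figure D4:**
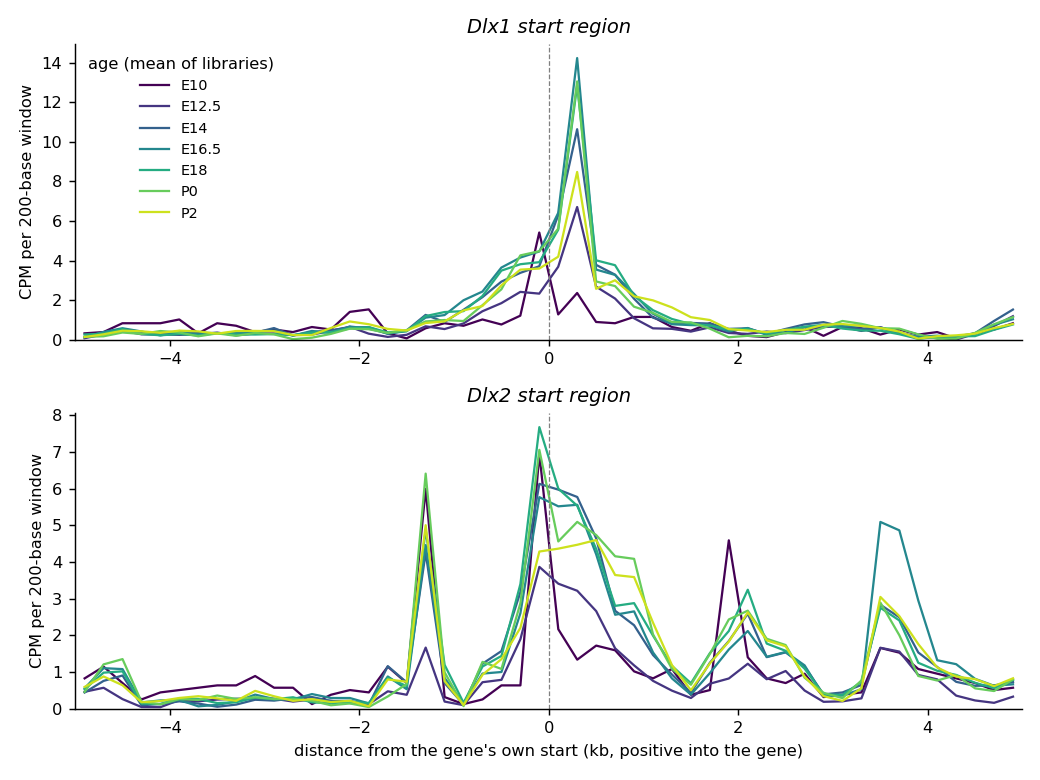
ATAC-seq CPM in windows of 200 bases by distance in kb from the start of Dlx1 (top) and Dlx2 (bottom), positive into the gene, as a line for the mean of the libraries of each age. Dlx1 shows its highest window just after its start and Dlx2 shows 4 summits, of which the one past its 3′ end is highest at E16.5, at 5.09 CPM.

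Across the 13 libraries the log2 CPM of the Dlx1 and Dlx2 regions had a Pearson correlation of 0.867 and a Spearman correlation of 0.55, and without the E10 library and E12.5 replicate 2 these were 0.849 and 0.282 over 11 libraries. By the same Pearson measure over 26843 regions, Dlx2 came 549th for Dlx1, and Dlx1 came 768th for Dlx2. The regions most like that of Dlx1 were those of Ppp1r13l, Srp19, Pnma1, Cd3eap and Nr2e1, at 0.953 to 0.950, and the regions most like that of Dlx2 were those of Id1 (0.984), Hlx, Thoc5 and Fam173a, the last with 2 regions. Among the relatives, the Dlx1as region was called higher at P0 than at E12.5, by 0.39 ± 0.13 (SE, edgeR). It overlaps the regions of Dlx1 and Dlx2 and holds part of their counts, so its call is not separate from them and no p-value is given. The Dlx6os2 region was also called higher, by 0.33 ± 0.14 (edgeR adjusted p = 0.0322). These are 2 of 7 relatives called higher, against 29.9% of all regions, and none was called lower, against 32% (61.9% in either direction). Between P2 and E14 the Dlx4 region was higher by 0.50 ± 0.13 (edgeR adjusted p = 0.00211) and the Dlx5 region lower by -0.45 ± 0.13 (adjusted p = 0.00469), while 14.7% of all regions were called higher and 16.5% lower (31.2% in either direction). Regions of Dlx3, Dlx6 and Dlx6os1 were called in neither comparison.

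The neighbours of the pair on chromosome 2 were seldom called in RNA. Of 12 flanking genes, 11 passed the filter, and in the sorts only Gad1 was called, by limma with Benjamini-Hochberg adjustment over all tested genes. At E18, where 3.61% of tested genes were called (1.13% higher and 2.49% lower, as 161 and 355 genes, or 482 and 465 under quantile scaling), Gad1 was lower in GFP+ cells by -4.55 ± 0.88 (adjusted p = 0.0371), and at P2, where 1.49% were called (0.112% higher and 1.37% lower), by -4.77 ± 0.88 (adjusted p = 0.0423). Gad1, the gene of the GABA enzyme GAD67, was at 0.455 and 0.300 FPKM in E18 GFP+ cells and 28.9 and 33.6 FPKM in E18 GFP- cells, and at 0.266 and 0.274 FPKM in P2 GFP+ cells and 39.2 and 28.9 FPKM in P2 GFP- cells. The signs of Gad1 and of the pair were thus opposite at E18, though the Dlx2 difference there, 0.35 ± 0.42, was within 1 SE of 0. Hat1, a histone acetyltransferase gene, was at 94.5 and 91.2 FPKM in E18 GFP+ cells and 36.7 and 35.8 FPKM in E18 GFP- cells, and its difference of 1.33 ± 0.53 was not called (adjusted p = 0.142). Metap1d was higher in P2 than in E14 GFP- cells by 1.01 ± 0.23 (limma adjusted p = 0.0406), in a comparison where 6.84% of genes were called. Metap1d was not called without all E18 libraries, where 79 genes were called in all. Tlk1, Mettl8, Dcaf17, Dync1i2, Slc25a12, Itga6, Pdk1 and Rapgef4 were not called in any of the 5 RNA comparisons, and Cybrd1 did not pass the filter. Without all E14 libraries limma called far more genes in all, 3537 higher and 3552 lower at E18 and 2254 higher and 2458 lower at P2. In that setting 6 flanking genes were called higher and 4 lower at E18 and 2 higher and 2 lower at P2. Without all E18 libraries no flanking gene was called at P2, where 23 genes were called in all. In ATAC-seq, 9 of 12 flanking regions were higher at P0 than at E12.5 and none lower, by edgeR, against 29.9% of all regions called higher and 32% lower, among them Dync1i2 at 1.02 ± 0.14 (adjusted p = 4.92e-09) and Gad1 at 0.84 ± 0.13 (adjusted p = 2.11e-07), with a list median of 0.76 against 0.01 over all regions. Between P2 and E14 none was higher, and Hat1 (-0.45 ± 0.15, adjusted p = 0.014) and Dcaf17 (-0.38 ± 0.15, adjusted p = 0.0441) were lower. At P0 against E12.5 the marker lists given below also moved. Of them, 13 of 15 progenitor and 13 of 15 neurogenic regions were higher and none lower (medians 0.85 and 0.86). Of 15 photoreceptor regions 5 were higher and 4 lower, and 9 of 12 lens regions were lower. The count at starts over flanks was higher in the P0 libraries, and its part was not tested.

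Of the genes reported as Dlx targets in other work, those called between the sorts were lower in GFP+ cells. Of 11 such genes 10 were tested, of which 3, 2 and 3 had positive differences at E14, E18 and P2. None was called at E14, where limma called 0 of 14276 genes (0%) after adjustment and 2246 had an unadjusted p below 0.05. At E18, 4 were lower and none higher, against 2.49% of all genes called lower, with a list median of -1.78 against 0.00 over all genes. They were Meis2 (-3.52 ± 0.28, adjusted p = 0.00176), a homeobox cofactor gene, Nrp2 (-2.03 ± 0.30, adjusted p = 0.0185), a semaphorin receptor gene, Gad1 as above and Ntrk2 (-2.24 ± 0.46, adjusted p = 0.0416), the gene of the BDNF receptor. Meis2 was at 14.1 and 13.6 FPKM in E18 GFP+ cells and 161.1 and 178.8 FPKM in E18 GFP- cells, and Ntrk2 at 0.951 and 0.943 FPKM in E18 GFP+ cells and 7.91 and 8.52 FPKM in E18 GFP- cells. At P2, 3 were lower and none higher, against 1.37% of all genes called lower: Nrp2 (-3.11 ± 0.30, limma adjusted p = 0.00276), Meis2 (-2.07 ± 0.28, adjusted p = 0.0147) and Gad1. Nrp2 was at 0.149 and 0.168 FPKM in P2 GFP+ cells and 6.05 and 13.2 FPKM in P2 GFP- cells, so the sorts differed widely. Without all E14 libraries, 7 targets were lower and 1 higher at E18, of 3552 and 3537 genes in all, and 6 lower and 1 higher at P2, of 2458 and 2254 in all. Without all E18 libraries no target was called at P2, where 23 genes were called in all.

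Pou4f2, a ganglion cell factor that Dlx proteins activate, was at 18.3 and 7.87 FPKM in E14 GFP+ cells, 1.52 and 1.30 FPKM at E18 and 0.0411 and 0.0826 FPKM at P2. In GFP- cells Pou4f2 was at 114.3 and 6.61 FPKM at E14, 16.0 and 19.2 FPKM at E18 and 0.512 and 0.0473 FPKM at P2. Its means were lowest at P2 in both sorts, and P2 minus E14 was -4.56 ± 1.03 (limma adjusted p = 0.0365) in GFP- cells and -3.62 ± 1.03 (adjusted p = 0.149) in GFP+ cells. The difference between these was not tested. Crx, a photoreceptor factor reported as repressed by DLX2, was at 27.4 and 2.25 FPKM in E14 GFP+ cells, 50.5 and 55.9 FPKM at E18 and 181.6 and 105.2 FPKM at P2. Its P2 minus E14 difference was 3.86 ± 1.11 (limma adjusted p = 0.153) in GFP+ cells and 5.02 ± 1.11 (adjusted p = 0.0342) in GFP- cells. In GFP- cells Meis2 also was higher at P2 than at E14, by 2.15 ± 0.28 (adjusted p = 0.00585). Thus 2 targets rose and 1 fell there, against 4.54% of genes called higher and 2.3% lower, while none was called in GFP+ cells, where 1.15% of genes were (0.932% higher and 0.217% lower). Without all E18 libraries none of the 10 was called in either age comparison. In that setting limma called 0 genes in all in GFP+ cells and 79 in GFP- cells. Without both E14 libraries numbered 2, which left 1 library in each E14 group, the target median was 0.13 in GFP+ cells and 1.05 in GFP- cells. The remaining targets Gad2, Olig2, Zeb2 and Pak3 were called in no RNA comparison. In ATAC-seq 7 of 11 target regions were higher at P0 than at E12.5 and none lower, against 29.9% of all regions called higher and 32% lower, Crx by 1.41 ± 0.13 (edgeR adjusted p = 8.37e-15) and Olig2 by 1.35 ± 0.16 (adjusted p = 1.57e-10) among them, and Crx and Olig2 were also higher at P2 than at E14, by 0.66 ± 0.12 and 0.71 ± 0.16, against 14.7% of all regions called higher. As given above, 13 of 15 progenitor and 13 of 15 neurogenic regions were also higher at P0, while 9 of 12 lens regions were lower. The part of the counts at starts over flanks, which were higher in the P0 than in the E12.5 libraries, was not tested.

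Markers of retinal classes place these values. Of 15 progenitor genes, all 15 differences at E14 and 13 at E18 and at P2 were positive (medians 2.23, 1.64 and 1.12), but none passed the test as higher, and Pax6, which amacrine and ganglion cells keep, was lower in GFP+ cells at E18 (-1.04 ± 0.22, limma adjusted p = 0.0439). Without all E14 libraries 12 of the 15 were called higher at E18, of 3537 genes called higher in all, and 12 at P2, of 2254. The 15 neurogenic genes, which include bHLH factors and Notch ligands, had medians of 1.5, 0.79 and 0.52, with none called. Among them Dll1, a Notch ligand gene, was at 52.7 and 26.7 FPKM in E14 GFP+ cells and 11.6 and 14.0 FPKM in E14 GFP- cells (1.49 ± 0.28, adjusted p = 0.235), and Neurog2 differed by 1.61 ± 0.43 (adjusted p = 0.3). In the same setting, with 7089 genes called in either direction at E18 and 4712 at P2, 9 neurogenic genes were called higher and 2 lower at E18, and 5 higher and 1 lower at P2.

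Called genes of later neuron classes were lower in GFP+ cells. Of 26 amacrine and horizontal genes tested, 6 were lower and none higher at E18 and 8 lower and none higher at P2 (medians -1.48 and -1.32), while 2.49% of all genes were called lower at E18 and 1.37% at P2. C1ql2 had the smallest p, at 0.255 and 0.215 FPKM in P2 GFP+ cells and 27.5 and 21.5 FPKM in P2 GFP- cells (-4.36 ± 0.24, limma adjusted p = 0.000335), and Tfap2a, an amacrine transcription factor gene, was at 0.473 and 1.73 FPKM in P2 GFP+ cells and 107.0 and 55.4 FPKM in P2 GFP- cells (-5.28 ± 0.52, adjusted p = 0.00276). Among 7 genes of GABA synthesis and transport, Gad1 was lower at E18 and at P2, and Slc32a1, the vesicular GABA transporter gene, at P2 (-4.33 ± 0.77, adjusted p = 0.0369). Of 20 ganglion cell genes none was called in the sorts, with medians of -2.35 at E14, -3.21 at E18 and -0.91 at P2, Isl1 at E18 being nearest (-4.30 ± 1.23, adjusted p = 0.0832). Without all E14 libraries 19 of 20 were called lower and 1 higher at E18, of 3552 genes lower and 3537 higher in all. Of 15 photoreceptor genes 7 were lower at E18 and 9 at P2, Rcvrn by -4.33 ± 0.16 at P2 (adjusted p = 3.68e-05). Without all E18 libraries, 1 amacrine and horizontal gene and 3 photoreceptor genes were called lower at P2, of 23 genes called in all. At E14 no list had a called gene. Leaving out both libraries numbered 2 left 1 library in each E14 group, so list medians alone are given for that setting. They were 4.21 for progenitor, 2.31 for neurogenic, -4.60 for ganglion cell, -1.23 for amacrine and horizontal and -1.50 for reported target genes. Gad1 stands in 4 of the lists and Meis2 in 3, so their counts are not separate.

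**Figure D5:**
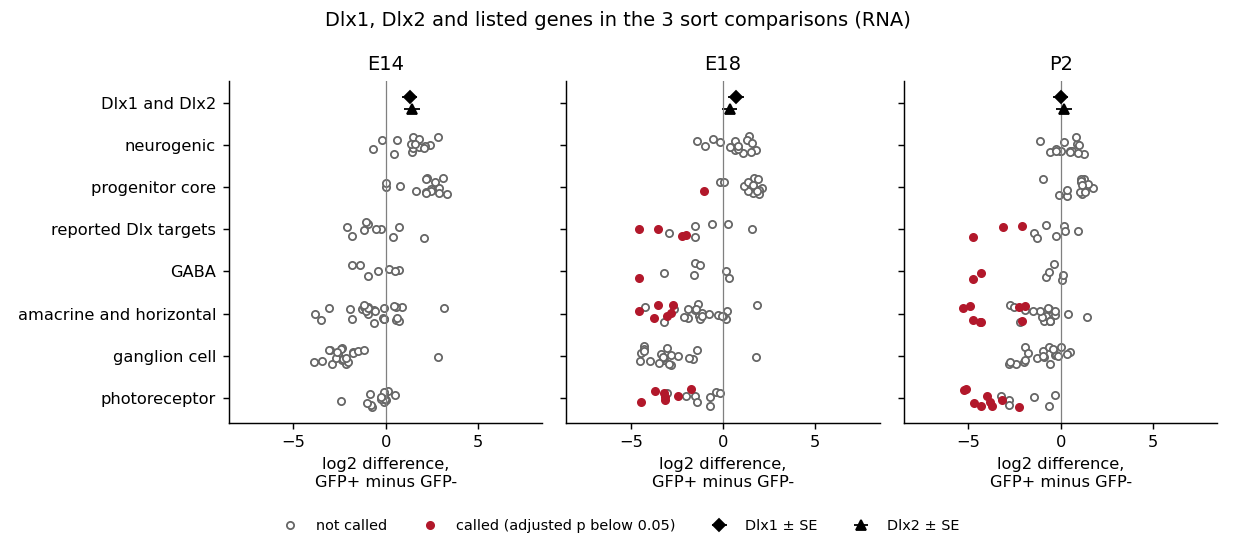
Log2 difference in RNA, GFP+ minus GFP-, at E14, E18 and P2 for Dlx1 and Dlx2 (black, with SE) and for the genes of 7 lists, each point a gene, filled in red where limma called it after adjustment and open otherwise. Dlx1 and Dlx2 lie right of 0 at E14, at 1.30 and 1.43, with most neurogenic and progenitor genes, while called amacrine, GABA, target and photoreceptor genes lie left of it at E18 and P2.

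Between P2 and E14, the called list genes in GFP+ cells were higher at P2. Of 15 photoreceptor genes 4 were higher and none lower, against 0.932% of all genes called higher and 0.217% lower, among them Nr2e3 (4.56 ± 0.54, limma adjusted p = 0.00978) and Otx2 (2.49 ± 0.32, adjusted p = 0.0141). Neurod2 was the only one of 26 amacrine and horizontal genes called there (1.63 ± 0.30, adjusted p = 0.0482), and no ganglion cell, progenitor, neurogenic or GABA gene was. None of these calls remained without all E18 libraries, a setting in which limma called 0 genes in all in this comparison. The ganglion cell genes had medians of -1.26 in GFP+ cells and -2.16 in GFP- cells. In GFP- cells 11 photoreceptor and 8 amacrine and horizontal genes were higher and none lower, against 4.54% of all genes called higher and 2.3% lower, C1ql2 by 4.52 ± 0.24 (limma adjusted p = 0.000166), while of 20 ganglion cell genes Rbpms (-5.03 ± 1.04, adjusted p = 0.028) and Pou4f2 were lower. Of the neurogenic genes 6 were higher there, Neurod1 by 3.97 ± 0.59 (adjusted p = 0.00867), and Sox11 was lower (-1.44 ± 0.31, adjusted p = 0.0325), and Hes5 was the only progenitor gene called higher (3.74 ± 0.86, adjusted p = 0.0395). Without all E18 libraries 9 photoreceptor and 2 amacrine and horizontal genes were called higher in GFP- cells, of 74 genes called higher and 5 lower in all, and no ganglion cell, neurogenic or progenitor gene was called, so the calls of Rbpms, Pou4f2, Neurod1, Sox11 and Hes5 were lost. These GFP- values also rest on the library labelled E14 GFP- replicate 2. Without both E14 libraries numbered 2, which left 1 library in each E14 group, list medians in GFP- cells were 1.09 for amacrine and horizontal and -4.72 for ganglion cell genes.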

How the data were processed

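Members and gene lists were chosen with earlier results of these data known. RNA values are FPKM, deposited by the authors per gene and library; the unit was inferred from the values and the program is not given in the sources used here. Chromatin values are counts, deposited by the authors per exon set of a gene and per 200-base window, on mm9 by their coordinates. Per the submitters' processing notes, Bowtie2, HISAT2, Picard 2.10.7, SAMtools 1.5, bedtools 2.26.0 and featureCounts 1.5.3 were used, with no role named. Windows were summed by 50 into 28329 regions. RNA was tested with limma 3.58.1 with a variance trend on log2(FPKM + 1), over 12 libraries and the 14276 genes that reached 1 FPKM in 2 of them, and region counts with edgeR 4.0.16 (quasi-likelihood, TMM) over 13. Each fit had 6 residual degrees of freedom, and the Benjamini-Hochberg adjusted threshold was 0.05. Both fits were tested on simulated data. DESeq2 1.42.0 was an alternative. Named genes are all Dlx relatives and flanking genes, and per other list and comparison up to 4 called members of smallest p, or 2 if none was called. Replicate numbers were not treated as pairs. Some results are not reported here.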

Additional observations from a re-analysis of the deposited data

How the results depend on the processing

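The signs of single called genes were not followed under the alternatives. Recomputed under the alternatives, 136 log2 differences of Dlx1 and Dlx2 moved by less than the spread between libraries and 14 by more. In RNA each is a difference of group means. It could therefore not move with no filter, with a replicate block, from the 4 libraries alone or without all libraries of another age. Those settings are counted among the 136 but are no check of the estimates. Without both E14 libraries numbered 2, chosen after seeing the data, the E14 sort difference was 2.14 for Dlx1 and 2.12 for Dlx2 and the P2 minus E14 difference of Dlx1 in GFP+ cells was -2.92; counting the central 2 kb gave 0.72 for Dlx2 at P0 against E12.5. Leaving out 1 library at a time gave, for Dlx1, 0.71 to 1.89 between sorts at E14 and -2.92 to -1.73 between P2 and E14 in GFP+ cells. For Dlx2 it gave -0.28 to 0.66 between sorts at P2, -1.46 to -0.52 between P2 and E14 in GFP- cells and -0.21 to 0.16 for the ATAC region at P2 against E14, so the sign of its P2 sort and ATAC differences was not stable.

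Counts of genes called by limma moved with the libraries in the fit, the filter, the pseudocount and the scaling. The E14 sort comparison called 0 genes, 45 with no filter and 6967 without both E14 libraries numbered 2. The E18 comparison called 516, 143 with a pseudocount of 0.1, 775 with no filter, 947 with quantile scaling, 7950 from its 4 libraries alone and 7089 without all E14 libraries. The P2 comparison called 212, 3229 from its 4 libraries alone, 4712 without all E14 libraries and 23 without all E18 libraries. In GFP+ cells, P2 against E14 called 164, 82 with no filter, 0 from 4 libraries alone, 0 without all E18 libraries and 1181 without both E14 libraries numbered 2. In GFP- cells it called 976, 0 from 4 libraries alone, 79 without all E18 libraries and 6520 without both E14 libraries numbered 2. The cause was not tested. Leaving out 1 library at a time gave 0 to 6844 genes at E14, 9 to 28 at E18, 29 to 114 at P2, 15 to 470 in GFP+ cells and 99 to 5272 in GFP- cells, and 3878 to 21100 regions for P2 against E14 and 10930 to 14480 for P0 against E12.5. The 6844 genes came without the library labelled E14 GFP- replicate 2 and the 21100 regions without P2 replicate 1. A lone library, in these settings and without both E14 libraries numbered 2, was assumed to vary like the other groups.

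With the replicate number as a block, 269 genes were called at E18, 129 at P2 and 92 in GFP+ cells between P2 and E14, and other counts stayed within 1.5 times. The deviations of same-numbered RNA libraries had correlations of 0.362 at E14, 0.111 at E18 and -0.558 at P2, so the numbers were not treated as pairs. Both E14 libraries numbered 2 held lens RNA, at 129.9 FPKM in GFP+ and 4883 FPKM in GFP- cells, against 0.697 and 1.49 FPKM in the other E14 libraries. The block was shared by all ages, so pairing within an age was not tested. RNA depth is unknown, and 2 libraries a group limit the precision.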

Other observations

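No lens, erythroid or pigment epithelium gene, of 9, 4 and 4 tested, was called by limma in any of the 5 RNA comparisons, which called 0% to 6.84% of all tested genes. Without both E14 libraries numbered 2, 1 lens gene passed the filter. Lens levels differed widely between E14 libraries of the same sort, so the lack of lens calls says little. Without all E14 libraries, 2 of 2 erythroid and 1 of 3 pigment epithelium genes were called lower in GFP+ cells at E18, of 3552 genes in all. At P2 in that setting, 1 of 2 erythroid, 3 of 3 pigment epithelium and 1 of 1 lens genes were called lower, of 2458 in all. Erythroid genes summed to 4.76 and 15.9 FPKM in the libraries labelled E14 GFP+ replicates 1 and 2, against 1251 and 111 FPKM in the libraries labelled E14 GFP- replicates 1 and 2. Pigment epithelium genes summed to 0.678 and 8.99 FPKM in E14 GFP+ and 7.77 and 211.4 FPKM in E14 GFP- libraries. In ATAC-seq, 9 of 12 lens regions were higher at P2 than at E14 and 9 were lower at P0 than at E12.5 by edgeR, against 14.7% of all regions higher and 32% lower in those comparisons. The count at starts over flanks was 22.7 and 12.2 in the P2 libraries against 24.9 and 25.5 in the E14 libraries, and 27.8 and 28.6 in the P0 libraries against 19.9 and 18.5 in the E12.5 libraries, and its part was not tested.

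Of 16 regulators of forebrain interneurons, the tissue in which Dlx1 and Dlx2 are best known, 7 were expressed above the filter. Meis2 alone was called, lower in GFP+ cells at E18 and P2 and higher at P2 than at E14 in GFP- cells. Of all tested genes 2.49% and 1.37% were called lower in those sorts, and 4.54% higher between those ages. Without all E18 libraries none was called at P2 or between ages. That setting called 23 genes in all between the sorts at P2, and between ages 0 in GFP+ and 79 in GFP- cells. Without all E14 libraries 1 was higher and 3 lower at E18, of 3537 and 3552 genes in all.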
